A study of Mus musculus with 27 samples.

Results

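The genes described here encode the mitochondrial respiratory chain and ATP synthase. They were taken from the array by symbol, as all symbols that start with Nduf, Uqcr, Atp5, Cox4, Cox5, Cox6, Cox7 or Cox8, or that equal Sdha, Sdhb, Sdhc or Sdhd. This rule gave 71 members of 16675 named genes on the array. The study measured RNA of the olfactory mucosa, the tissue of the nasal cavity that holds the odor-sensing neurons, in female FVB mice aged 25 days. The occluded group was the mucosa behind a nostril closed by cautery, the open group was that behind the other nostril of these mice, and the normal group came from other mice given a sham cautery. There were 3 biological replicates in each group and 3 arrays for each biological replicate, 27 arrays and 9 biological replicates in all. Equal replicate numbers of the occluded and open sides were read from the titles as the same mouse. The labels name no transgene and no treatment that all groups share.

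The respiratory chain is a set of protein complexes in the inner mitochondrial membrane. Complex I takes electrons from NADH and complex II takes them from succinate, a step that it shares with the TCA cycle. Complex III passes the electrons to cytochrome c, complex IV passes them to oxygen, and ATP synthase uses the proton gradient that complexes I, III and IV build up. Nearly all subunits come from nuclear genes, which are the genes measured here. The subunits encoded by mitochondrial DNA are no members. In olfactory neurons, ATP feeds the ion pumps and the adenylyl cyclase of odor signalling.

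By their known products, 32 members are subunits of complex I, 4 of complex II, 6 of complex III, 15 of complex IV and 9 of ATP synthase. The other 5 share a symbol with the complexes without being subunits. Ndufaf1 and Ndufa12l (now Ndufaf2) are assembly factors of complex I, Atp5s and Atp5sl are now named Dmac2l and Dmac2, and Cox4nb is now Emc8, a subunit of a membrane protein insertion complex. Ndufa4 is counted with complex I by its symbol, although its product has also been assigned to complex IV. Atp5f1 is now called Atp5pb and Uqcr is now Uqcr11. A single probe stood for 60 members, and for the 11 members with 2 probes the probe with the higher mean was used.

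Values are log2 intensities after quantile normalization, with the 3 arrays of a biological replicate averaged. The median deposited intensity of an array lay between 123 and 274. The noise limit of an array, 3 times the root mean square of its negative values, was 11.6 to 24.1 in intensity. A probe is called saturated on an array where it came within 0.5% of that array's maximum. Of the members, 5 could not be read on more than 13 of 27 arrays. Cox8a was saturated on 27 arrays, Cox6a1 on 25 and Cox4i1 on 17, while Cox4i2, the lung isoform of its subunit, lay below the noise limit on 27 arrays and Cox7b2 on 25. No fold is drawn from these 5 probes. The ATP synthase gamma subunit gene Atp5c1 was saturated on 10 arrays. Probes differ in brightness, so levels are compared only within a gene.

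The label of the tissue was checked against 7 marker genes of mature olfactory neurons. On more than 13 arrays, none of them was under the noise limit. Their summed linear intensity was 236004 to 267626 in occluded, 202859 to 209331 in open and 206389 to 222822 in normal replicates, and occluded did not overlap with either other group. Omp, the olfactory marker protein gene, was saturated on 26 arrays and adds little to these differences. Over the 4 of these markers that were saturated on 0 arrays, the sums were 66907 to 83353 in occluded, 51490 to 61003 in open and 59734 to 62448 in normal replicates. Against open, 6 of 7 lay above 0 and Slc17a6 lay below at -0.57, and 0 of 7 passed in limma, with 4 at an unadjusted p under 0.05. Against normal, 5 lay above 0 and 2 below, down to -0.53, and 0 passed. For 7 markers of immature olfactory neurons the sums were 34805 to 45859 in occluded, 43317 to 54505 in open and 46209 to 56139 in normal mucosa. For 4 markers of basal cells they were 12750 to 15413 in occluded, 15504 to 19582 in open and 14996 to 18111 in normal mucosa. The sums of immature neurons overlapped between occluded and open, and not between occluded and normal. Those of basal cells overlapped between occluded and normal, and not between occluded and open. All 7 immature and all 4 basal markers lay below 0 in occluded against both other groups. In limma, 0 genes of either list passed, and 1 basal marker had an unadjusted p under 0.05 against open. The part of these cell types in the values of the respiratory chain genes was not tested. In such bulk samples, fewer cells of a type and less RNA per cell cannot be told apart.

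The replicates numbered 1 stood apart from those numbered 2 and 3 for part of the respiratory chain genes and for other genes. In 22 of 71 members (31.0%) all 3 replicates numbered 1 lay below the other 6, which was the case for 10.5% of all 29922 probes. In 7 members (9.86%) they lay above the other 6, against 12.1% of all probes. These 7 include Cox8a, saturated on 27 arrays, and Atp5c1, saturated on 10. For number 2 there were 0 members below all others (against 0.735% of all probes) and 1 above (1.41%, against 0.515%). For number 3 there were 0 below (against 0.846%) and 3 above (4.23%, against 0.946%). Over all probes, too, such shares were thus far lower for numbers 2 and 3 than for number 1. The count of members low in number 1 depends on the scaling of the arrays. It was 26 members (36.6%, against 19.8% of all probes) without normalization and 9 members (12.7%, against 9.24%) with median centring of each array in place of quantile normalization, where the share of the members is close to that of all probes. Markers of some cell types also lay lower in number 1. These were 3 of 6 genes of sustentacular cells, 3 of 7 of immature neurons, 2 of 4 of basal cells and 2 of 6 of the respiratory epithelium. Further, 1 of 7 of mature neurons, 1 of 4 of myeloid cells and 1 of 3 of endothelium did so. It was 0 of 12 for skeletal muscle, 0 of 4 for olfactory bulb, 0 of 3 for bone and cartilage, 0 of 2 for brown fat and 0 of 1 for blood. Above all others lay 1 of 6 sustentacular and 1 of 12 skeletal muscle markers. The part of these cell types in the values of the members was not tested. The running numbers in the array labels follow the replicate number, so that running number and replicate number cannot be told apart. The arrays of number 1 had median intensities of 123 to 171, and those of numbers 2 and 3 of 146 to 274. The normal replicates come from other mice than the occluded and open ones, so the number is not a shared animal across all groups.

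Complex II was low in number 1 for the brighter or sole probe of each of its 4 genes, while a second probe of Sdhc overlapped. The flavoprotein gene Sdha, which carries the succinate-oxidizing site, had 7.66, 7.85 and 8.07 log2 intensity in replicate 1 of the occluded, open and normal groups. It had 9.0, 9.41 and 8.97 in replicate 2 of these groups and 8.80, 9.28 and 9.10 in replicate 3. Replicate 1 was thus the lowest in each group, by 1.24 in occluded, 1.49 in open and 0.96 in normal mucosa below the mean of the other replicates. Sdhd, a membrane anchor subunit, had 8.36, 8.30 and 8.98 in replicate 1, against 9.47, 9.57 and 9.55 in replicate 2 and 10.05, 10.08 and 9.71 in replicate 3. The iron-sulfur subunit gene Sdhb had 9.87, 9.65 and 10.36 in replicate 1, against 11.13, 10.98 and 10.48 in replicate 2 and 10.71, 11.02 and 10.62 in replicate 3. For Sdhb the gap was narrow in normal mucosa, where replicate 1 lay 0.19 below the mean of the other replicates, and it was 1.06 in occluded and 1.35 in open mucosa. With median centring the replicates of Sdhb overlapped, with a mean difference of -0.76. Those of Sdha (-1.21), Sdhc (-1.15) and Sdhd (-1.15) were still apart.

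In ATP synthase, 5 of 9 subunit genes lay lower in number 1 (55.6%, against 10.5% of all probes). Atp5a1, the alpha subunit of the catalytic head, had 11.29, 11.13 and 11.28 in replicate 1 of the occluded, open and normal groups, against 12.57, 12.66 and 12.62 in replicate 2 and 12.55, 13.08 and 11.98 in replicate 3. All 9 single arrays of number 1 lay below the other 18 for this gene, as they did for Sdha and for Ndufv2. The partner of the alpha subunit in the catalytic head behaved differently. Atp5b, the beta subunit, had 15.10, 14.60 and 15.10 in replicate 1, against 15.12, 15.22 and 15.28 in replicate 2 and 15.30, 15.35 and 15.03 in replicate 3, so that the open replicate 1 alone stood clearly below the rest. The other 4 low genes were Atp5e (-1.20 for number 1 minus the mean of the others), Atp5j (-1.18), Atp5k (-1.04) and Atp5d (-0.58), subunits of the central stalk, the side stalk and the membrane part. With median centring, number 1 still lay below all others for Atp5e and Atp5j, and not for Atp5k and Atp5d.

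In complex I, number 1 lay below all others in 10 of 32 genes (31.2%, against 10.5% of all probes). It lay above in 3 (9.38%), which is under the 12.1% of all probes. With median centring, 3 of the 32 genes still lay below all others, as did 9.24% of all probes. These were Ndufb10, Ndufs1 and Ndufv2. Ndufv2, an iron-sulfur subunit of the NADH-oxidizing module, had 8.83, 8.80 and 9.22 in replicate 1 of the occluded, open and normal groups, against 10.40, 10.58 and 10.01 in replicate 2 and 10.37, 10.37 and 10.12 in replicate 3. Its neighbour in that module, the NADH-binding subunit gene Ndufv1, had 14.35, 14.52 and 14.46 in replicate 1, against 14.37, 14.30 and 14.14 in replicate 2 and 14.18, 14.15 and 14.39 in replicate 3. The numbers overlapped for Ndufv1, so the low values do not cover the whole module. The largest iron-sulfur subunit gene, Ndufs1, lay 0.97, 0.94 and 0.76 lower in replicate 1 than the mean of the other replicates of the occluded, open and normal groups. The accessory subunit gene Ndufa9 had the opposite order, with replicate 1 above the mean of the other replicates by 0.43 in occluded, 0.38 in open and 0.40 in normal mucosa.

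Complexes III and IV showed little of this. Number 1 lay below all others in 1 of 6 genes of complex III (16.7%) and in 1 of 15 of complex IV (6.67%). The share over all probes was 10.5%. Number 1 lay above all others in 2 (33.3%) and 1 (6.67%), against 12.1% of all probes. The 15 complex IV genes include the 5 saturated or dim members, from which no fold is drawn. The complex IV gene counted as above was Cox8a, saturated on 27 arrays. Cox5a, a nuclear-encoded subunit of cytochrome c oxidase, had 14.90, 14.80 and 14.94 in replicate 1 of the occluded, open and normal groups, against 14.94, 14.86 and 14.67 in replicate 2 and 14.98, 14.73 and 14.72 in replicate 3. Uqcrq of complex III lay higher in number 1, with 8.64, 8.56 and 8.34, against 8.0, 7.90 and 7.79 in replicate 2 and 7.94, 7.88 and 8.27 in replicate 3. In 13 lists of neighbouring pathways, the share of genes with number 1 below all others ran from 0% of the 9 genes of pyruvate dehydrogenase, 2 of which lay above, to 33.3% of the 12 TCA cycle genes, 1 of which lay above. Both directions were found in all of these lists but those of pyruvate dehydrogenase and glycolysis. Examples are ADP/ATP carriers and porins (2 below and 2 above of 11) and cytochrome c oxidase assembly (3 and 2 of 14). In the large mitochondrial ribosome they were 9 and 6 of 43.

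**Figure D1:**
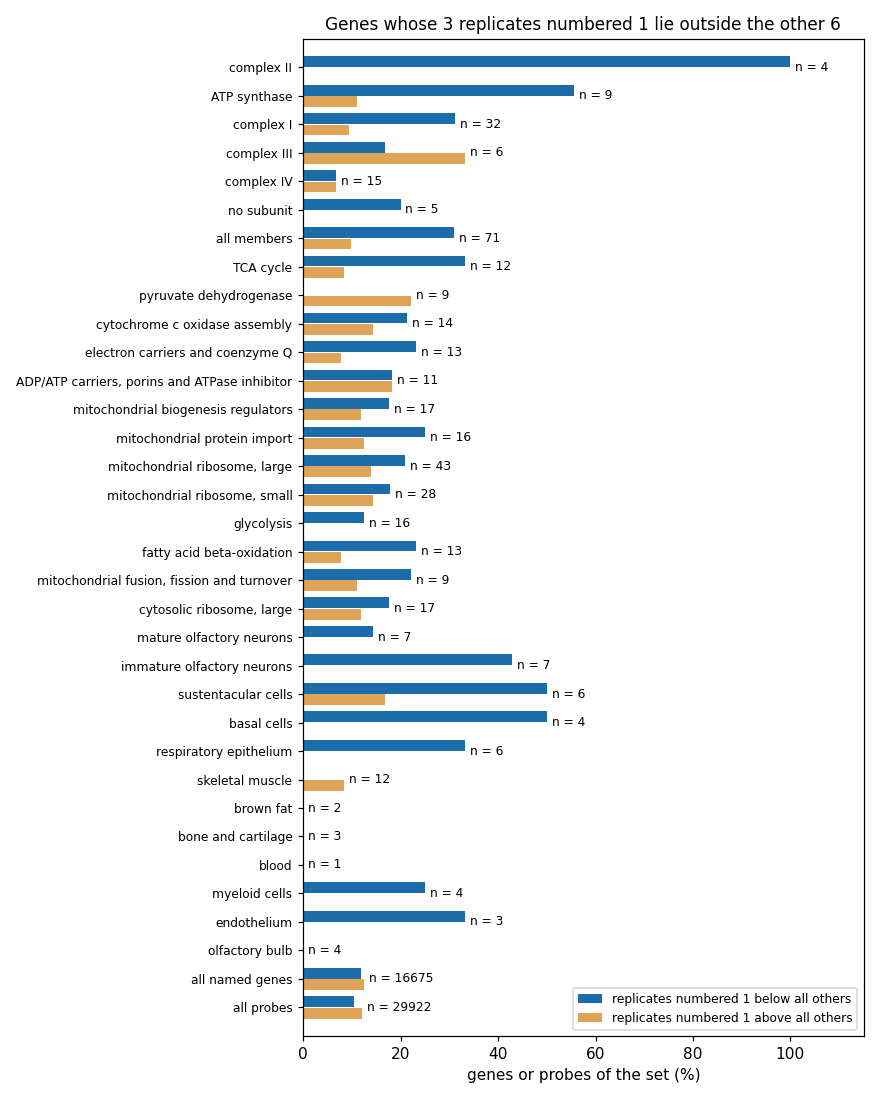
Share of genes in each set (horizontal axis, percent, starting at 0) in which all 3 replicates numbered 1 lie below (blue) or above (orange) the other 6 biological replicates, for the complexes, the lists of pathways, the lists of cell type markers and all genes or probes, with the number of genes or probes beside each pair of bars. Complex II (4 of 4) and ATP synthase (5 of 9) have the longest blue bars, followed by the markers of sustentacular cells (3 of 6) and basal cells (2 of 4), and all 29922 probes reach 10.5%.

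Of the 22 low members, 3 had a second probe, and for 0 of these 3 did the second probe lie lower in all replicates numbered 1. The low values of the other 19 rest on 1 probe each. The brighter probe of Sdhc, the other membrane anchor gene of complex II, lay 1.29 lower in number 1, and its dimmer probe lay 0.31 lower with overlapping replicates. For Ndufa13 the brighter probe gave -0.68 and the dimmer 0.30. For Ndufa5 the values were -0.63 and -0.09, and for Ndufs4 the brighter probe gave 0.13 and the dimmer -0.59. The pattern is therefore a reading of single probes in these 4 genes and is not shown for their transcripts. None of the 4 genes had a probe below the noise limit.

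**Figure D2:**
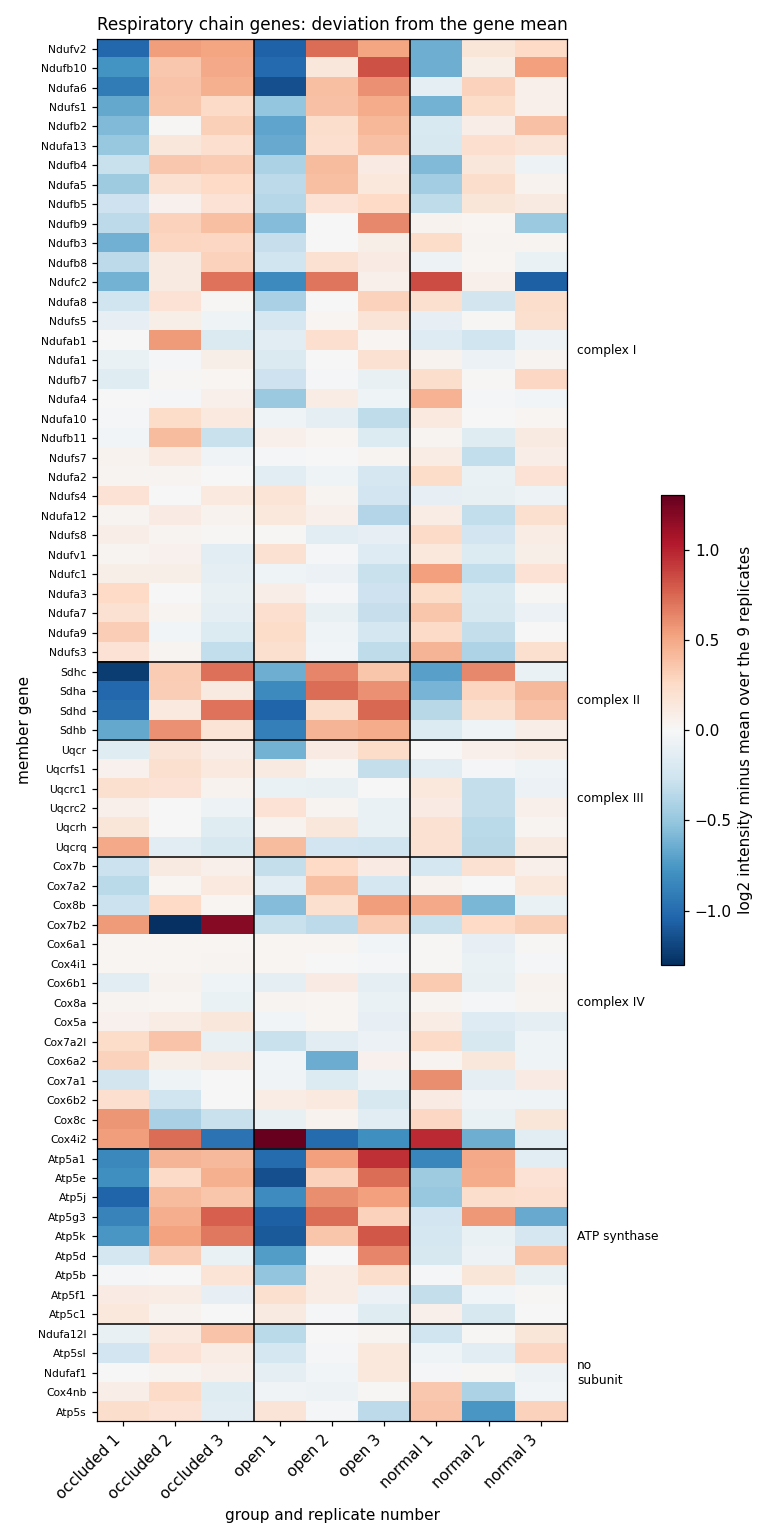
Deviation of each member from its own mean over the 9 biological replicates (color, log2 units, blue low and red high), with members in rows by complex and the occluded, open and normal replicates in columns. The first column of each group, replicate 1, is blue for the probes shown of all 4 complex II genes and for ATP synthase genes such as Atp5a1. The medians over all members are -0.03, -0.19 and 0.04 in replicate 1 of the occluded, open and normal groups. In replicates 2 and 3 they lie between -0.05 and 0.12.

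Promoters are given for 3 of the genes that were low in number 1 and for 1 that was high. They were picked among members whose window held a match to the letters below. The nuclear respiratory factor NRF1, the ETS factor GABP (also called NRF2), YY1 and the estrogen-related receptors (ERR) are known regulators of respiratory chain genes. Each sequence runs 5′ to 3′ on the strand of the gene, from 250 bases before to 50 bases after the annotated start, from RefSeq on GRCm38.p6. Capitals mark every match, on either strand, to the letters GCGCANGCG (NRF1), CCGGAAG (GABP), AAGATGGCG (YY1) or TCAAGGTCA (ERR), where N is any base.
Sdha, chr13:74350191-74350490, minus strand: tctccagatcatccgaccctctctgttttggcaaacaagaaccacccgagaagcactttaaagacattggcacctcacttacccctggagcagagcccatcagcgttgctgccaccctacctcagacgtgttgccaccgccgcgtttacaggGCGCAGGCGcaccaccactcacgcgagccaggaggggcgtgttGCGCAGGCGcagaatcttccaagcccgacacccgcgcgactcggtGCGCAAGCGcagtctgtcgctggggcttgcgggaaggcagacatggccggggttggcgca
Ndufb10, chr17:24724374-24724673, minus strand: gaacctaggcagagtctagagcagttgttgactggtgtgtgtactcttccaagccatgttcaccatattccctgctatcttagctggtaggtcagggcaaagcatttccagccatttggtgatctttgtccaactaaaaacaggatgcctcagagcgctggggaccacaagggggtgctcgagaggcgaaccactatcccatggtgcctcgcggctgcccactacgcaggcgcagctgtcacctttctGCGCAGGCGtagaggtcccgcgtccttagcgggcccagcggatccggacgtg
Atp5e, chr2:174464052-174464351, minus strand: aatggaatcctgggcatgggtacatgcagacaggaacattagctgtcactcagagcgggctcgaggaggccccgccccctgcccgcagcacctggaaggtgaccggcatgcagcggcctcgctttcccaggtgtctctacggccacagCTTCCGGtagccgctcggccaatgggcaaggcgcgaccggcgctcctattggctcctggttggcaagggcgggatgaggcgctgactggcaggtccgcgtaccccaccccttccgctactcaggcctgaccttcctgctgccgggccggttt
Ndufa9, chr6:126849095-126849394, minus strand: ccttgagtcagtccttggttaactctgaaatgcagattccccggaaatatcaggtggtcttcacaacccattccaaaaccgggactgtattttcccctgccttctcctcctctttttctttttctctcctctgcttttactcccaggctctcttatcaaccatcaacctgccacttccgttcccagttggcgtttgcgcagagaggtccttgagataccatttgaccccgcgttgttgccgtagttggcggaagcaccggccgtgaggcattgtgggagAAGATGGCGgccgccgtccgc

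The Sdha window held 3 matches to the NRF1 letters, that of Ndufb10 1 to NRF1, that of Atp5e 1 to GABP and that of Ndufa9 1 to YY1. Sdha and Ndufb10 were the lowest in number 1 with an NRF1 match. Atp5e was the lowest with a GABP match and none to NRF1, and Ndufa9 the highest with a YY1 match. That these windows held matches was therefore fixed by the choice. The window of Ndufv2, the lowest member in number 1 (-1.36), held none. Ndufb10, an accessory subunit of complex I, had 7.37, 7.14 and 7.51 log2 intensity in replicate 1 of the occluded, open and normal groups, against 8.22 to 8.97 in the other replicates. A promoter was found for 59 members, with 65 windows of 300 bases in all. The NRF1 letters stood in 15 of 65 member windows (23.1%), against 9.62% of the windows of all genes named on the array. The GABP letters stood in 14 (21.5%, against 12.2%), the YY1 letters in 7 (10.8%, against 2.06%) and the ERR letters in 2 (3.08%, against 0.294%). No matches to different motifs overlapped, and 3 pairs of matches to the same motif did. Longer forms of the NRF1 and YY1 letters, tried first, matched fewer windows, so these counts depend on the letters chosen. These are matches of letters and not shown to be binding sites.

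Occluded and open sides were compared first, to see whether closing a nostril changed these genes within a mouse. No respiratory chain gene passed: 0 of 71 members had an adjusted p under 0.05 in limma, and 0 of 71 had an unadjusted p under 0.05. Of all 29922 probes, 66 (0.221%) passed the adjusted threshold, 53 higher (0.177%) and 13 lower (0.0434%) in occluded, and 1852 (6.19%) the unadjusted one. The median log2 difference, occluded minus open, was 0.04 over the members and 0.0042 over all probes. Of the members, 48 lay above 0 and 23 below (67.6% above, against 51.5% of all named genes). All 5 members that could not be read lay above 0, and of the 66 readable members 43 lay above and 23 below (65.2%). Over the settings tried, the count of 48 lay between 40 without replicate 1 and 64 with median centring. Differences ranged from -0.36 for Sdha to 0.37 for Cox6a2. Of the 66 members that could be read, the 95% interval lay within 1 log2 unit of 0 for 61 and within 0.5 for 29, so for the other readable members a change of 0.5 could not be told from none at this spread.

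The smallest p-values of this comparison belonged to Cox6a2, Ndufa10 and Cox7a2l. Cox6a2, the isoform of heart and skeletal muscle, had 6.84, 6.62 and 6.67 log2 intensity in occluded replicates 1 to 3, against 6.51, 5.91 and 6.61 in the open replicates. The groups did not overlap, and the widest gap was that of replicate 2, with its low open value. The difference was 0.37 ± 0.17 (SE, limma adjusted p = 0.849). Ndufa10, an accessory subunit of complex I, had 13.67, 13.93 and 13.82 in occluded, against 13.63, 13.57 and 13.36 in open replicates. All occluded values lay above all open ones, with a difference of 0.28 ± 0.14 (limma adjusted p = 0.856). A dimmer probe of Ndufa10 differed by 0.15, with groups that overlapped. Cox7a2l, whose product joins complexes III and IV into supercomplexes, had 7.94, 8.07 and 7.61 in occluded and 7.42, 7.57 and 7.63 in open replicates. Here the groups overlapped, since replicate 3 showed no gap (0.34 ± 0.17, limma adjusted p = 0.871).

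Groups without overlap were found for 5 members, all higher in occluded (7.04%, against 3.76% of all probes), and for 0 that were lower (against 2.94%). Besides Cox6a2 and Ndufa10 these were Cox5a, Ndufa2 and the complex III core gene Uqcrc1. Uqcrc1 had 13.61, 13.58 and 13.44 in occluded, against 13.30, 13.30 and 13.39 in open replicates, a difference of 0.21 with a 95% interval of -0.11 to 0.53. Cox5a averaged 14.94 ± 0.04 in occluded and 14.80 ± 0.06 in open replicates (SD, n = 3 each), with a difference of 0.14 and an interval of -0.15 to 0.43. Neither passed in limma (adjusted p = 0.957 and 0.992), which draws the spread of each probe toward that of all probes. Counted by pairs of sides, 16 members (22.5%) were higher in occluded in all 3 pairs, against 13.8% of all probes, and without the members that could not be read these were 14 of 66 (21.2%). Only 4 (5.63%) were lower in all 3, against 12.6%, and these were Sdha, Ndufs1, Atp5j and Atp5f1.

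Sdha had the lowest difference of all members. Pair by pair, occluded lay below open by 0.19, 0.41 and 0.48, so the sign was the same in the 3 pairs. Since both sides were low in replicate 1, the spread within groups was large (SD of 0.72 in occluded and 0.86 in open), and the difference of -0.36 had a 95% interval of -1.18 to 0.46 (limma adjusted p = 0.994). Fitted over the 6 values alone with each mouse as a fixed block, Sdha had an adjusted p of 0.89 in limma. The other complex II genes gave -0.19 ± 0.41 for Sdhc, -0.02 ± 0.37 for Sdhd and 0.02 ± 0.30 for Sdhb.

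By complex, the medians of occluded minus open were 0.05 for complex I, -0.10 for complex II, 0.10 for complex III, 0.02 for complex IV and 0.03 for ATP synthase. In complex I, 23 of 32 genes lay above 0, with -0.13 ± 0.27 for Ndufs1 and -0.02 ± 0.14 for Ndufv1. In complex III, the Rieske protein gene Uqcrfs1 differed by 0.19 ± 0.14. In ATP synthase, Atp5a1 differed by -0.15 ± 0.41 and Atp5b by 0.12 ± 0.18, and the membrane ring gene Atp5g3 by 0.14 ± 0.41. Sdhc, Sdhd and Atp5a1, with large errors, were low in number 1 of all groups. Atp5g3 was lower in number 1 of occluded (-1.50) and open mucosa (-1.58). In normal mucosa its gap was -0.21 and replicate 3 was the lowest. The source of these errors was not tested. All 5 members that are no subunits lay above 0, with a median of 0.09 and Ndufa12l highest at 0.23 ± 0.16.

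**Figure D3:**
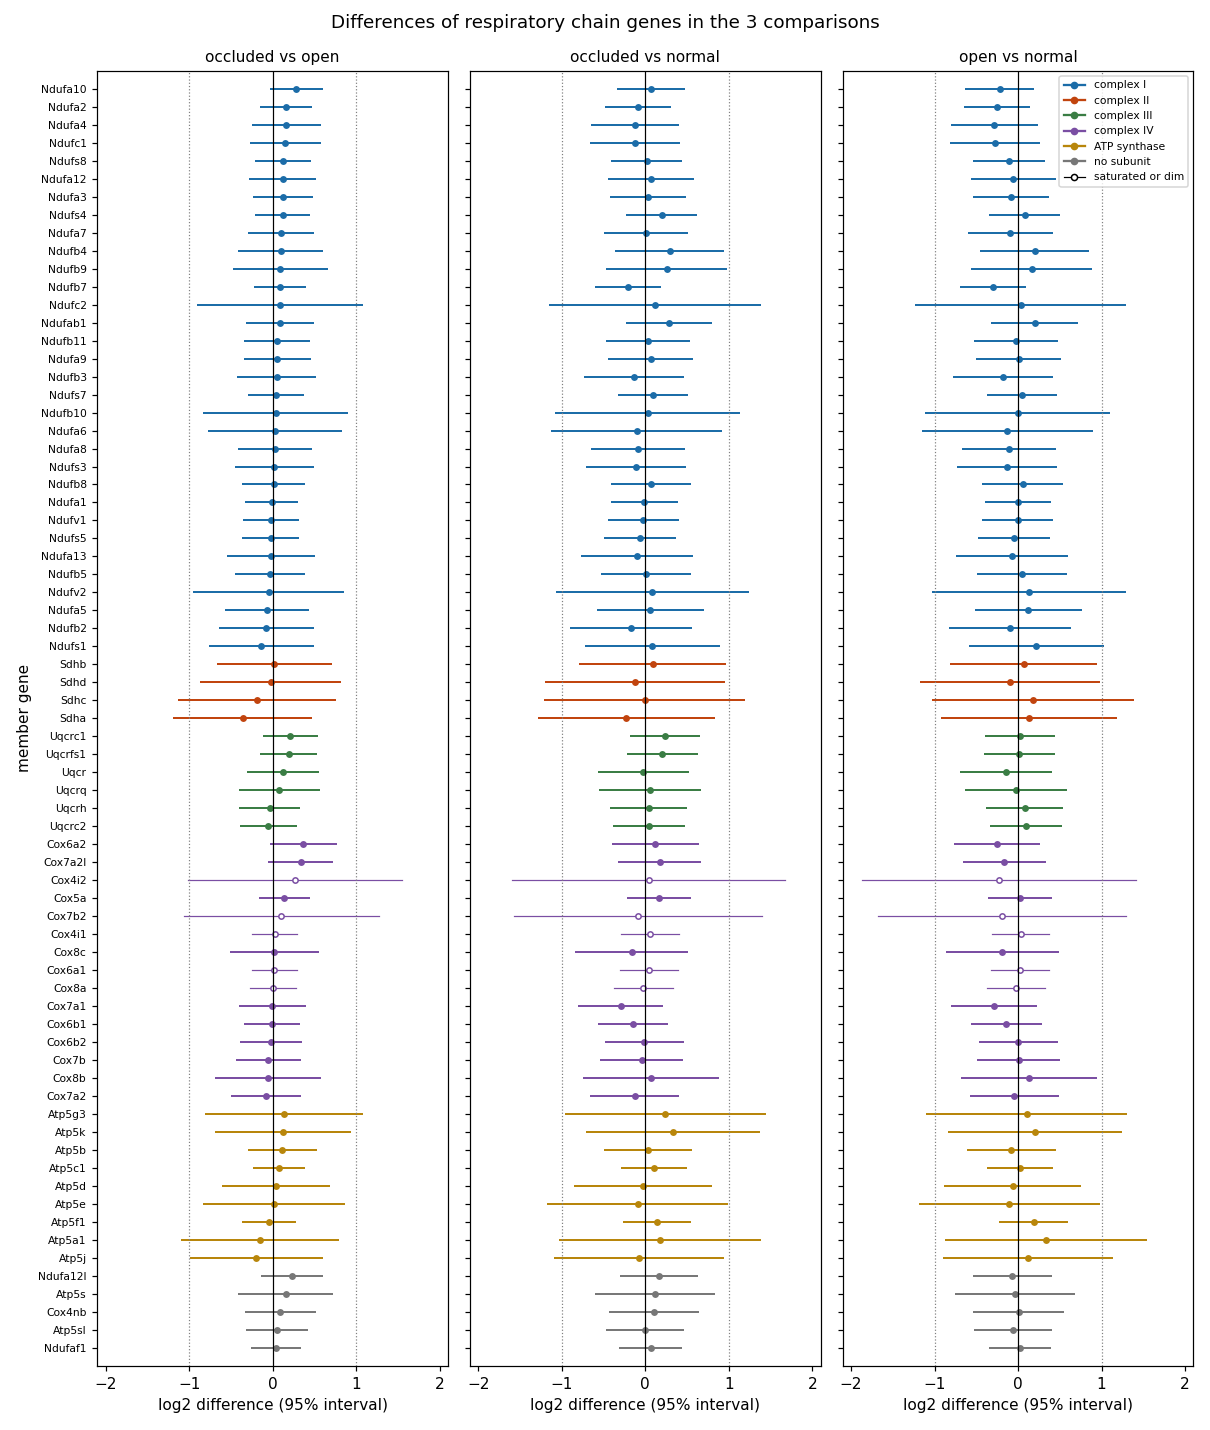
Log2 difference of each member (point) with its 95% interval (line) in the comparisons occluded vs open, occluded vs normal and open vs normal, grouped and colored by complex, with open points for the 5 members that were saturated or dim. All intervals cross 0 and the widest among the filled points belong to members such as Ndufc2, Sdhc and Atp5g3.

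Tissue-specific isoforms of complex IV were read beside their common partners. Besides Cox6a2, the muscle isoform gene Cox7a1 differed by -0.0043 between the sides (95% interval -0.39 to 0.39), and the muscle isoform gene Cox8b differed by -0.06 (-0.68 to 0.57). Markers of skeletal muscle, 12 genes, summed to 2333 to 2975 in occluded, 1998 to 3110 in open and 2376 to 2776 in normal replicates, and these ranges overlapped. Single muscle markers differed in sign between occluded and open, with 7 above 0 and 5 below, from -1.27 to 0.69. Of these markers 2 had an unadjusted p under 0.05 in limma and 0 passed. The testis isoform genes Cox6b2 and Cox8c differed by -0.02 ± 0.16 and 0.02 ± 0.23. Of the common partners, Cox6b1 differed by -0.01 ± 0.14 and Cox7a2 by -0.08 ± 0.18. The partners Cox6a1 and Cox8a were saturated and cannot be read.

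Next, the occluded side was compared with mucosa of sham-treated mice. Of the members, 0 of 71 had an adjusted p under 0.05 in limma and 0 of 71 an unadjusted p under 0.05, against 2 (0.00668%) and 861 (2.88%) of all probes. The median difference, occluded minus normal, was 0.04, with 42 members above and 29 below 0 and a range of -0.29 to 0.33. Its sign turned on 1 replicate: without normal replicate 2 the median was -0.02 with 33 members above 0. Without occluded replicate 1 it was 0.12, and without normalization 0.13 with 57 above. The 95% interval lay within 1 log2 unit of 0 for 54 of 66 readable members and within 0.5 for 14. The smallest p was that of Cox7a1, with 9.41, 9.60 and 9.65 in occluded, against 10.26, 9.52 and 9.76 in normal replicates. The groups overlapped, and normal replicate 1 was well above the rest (-0.29 ± 0.22, limma adjusted p = 1). Next came Uqcrc1 with 0.23 ± 0.18, the mitochondrial acyl carrier protein gene Ndufab1 with 0.29 ± 0.22 and Ndufb7 with -0.21 ± 0.17.

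In 4 members all occluded values lay above all normal ones (5.63%, against 3.57% of all probes), and in 0 they lay below (against 3.09%). Of the 4, Cox4i1 and Cox6a1 were saturated and are not read. The others were Uqcrfs1, with 8.87, 9.02 and 8.94 in occluded against 8.67, 8.78 and 8.76 in normal replicates, and Ndufs4, with 15.54, 15.34 and 15.48 against 15.24, 15.26 and 15.28. Both gaps were small, at 0.20 ± 0.18 and 0.20 ± 0.18. For the dimmer probe of Ndufs4 the groups overlapped, with a difference of 0.11 ± 0.26. The highest difference of all members was that of Atp5k, a subunit of the membrane part of ATP synthase, with 0.33 ± 0.45. Its values were 8.28, 9.57 and 9.73 in occluded, against 8.81, 8.96 and 8.83 in normal replicates, so that replicates 2 and 3 were higher in occluded and replicate 1 was lower. Without the replicates numbered 1 of all groups, Atp5k differed by 0.76 from normal mucosa (limma adjusted p = 0.901).

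The third comparison set the open side against the mucosa of sham-treated mice. None of the 71 members passed, with 0 under an adjusted and 0 under an unadjusted p of 0.05 in limma, against 0 (0%) and 477 (1.59%) of all probes. The median difference, open minus normal, was -0.0048, with 34 members above and 37 below 0 and a range of -0.30 to 0.33. The number above 0 ran from 24 with median centring to 48 without the replicates numbered 1, and the median lay between -0.06 without normal replicate 2 and 0.06 without open replicate 1. For 53 of 66 readable members the 95% interval lay within 1 log2 unit of 0, and for 12 within 0.5. The complex I accessory gene Ndufb7 had the smallest p, with 12.10, 12.35 and 12.27 in open, against 12.60, 12.39 and 12.64 in normal replicates. Its groups did not overlap, and the difference was -0.30 ± 0.17 (limma adjusted p = 1). Ndufa10 also did not overlap, with 13.63, 13.57 and 13.36 in open, against 13.82, 13.69 and 13.72 in normal replicates, and differed by -0.22 ± 0.17. These 2 members were all lower in open (2.82%, against 2.21% of all probes), and 0 were all higher (against 2.06%). Ndufa2 (-0.25 ± 0.17), Cox7a1 (-0.29 ± 0.22) and Ndufa4 (-0.28 ± 0.23) followed. The 3 comparisons share their groups in pairs, so the values of Ndufa10 against both other groups rest on the same open replicates. For the dimmer probe of Ndufa10 the open and normal groups overlapped, with a difference of -0.10 ± 0.19.

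**Figure D4:**
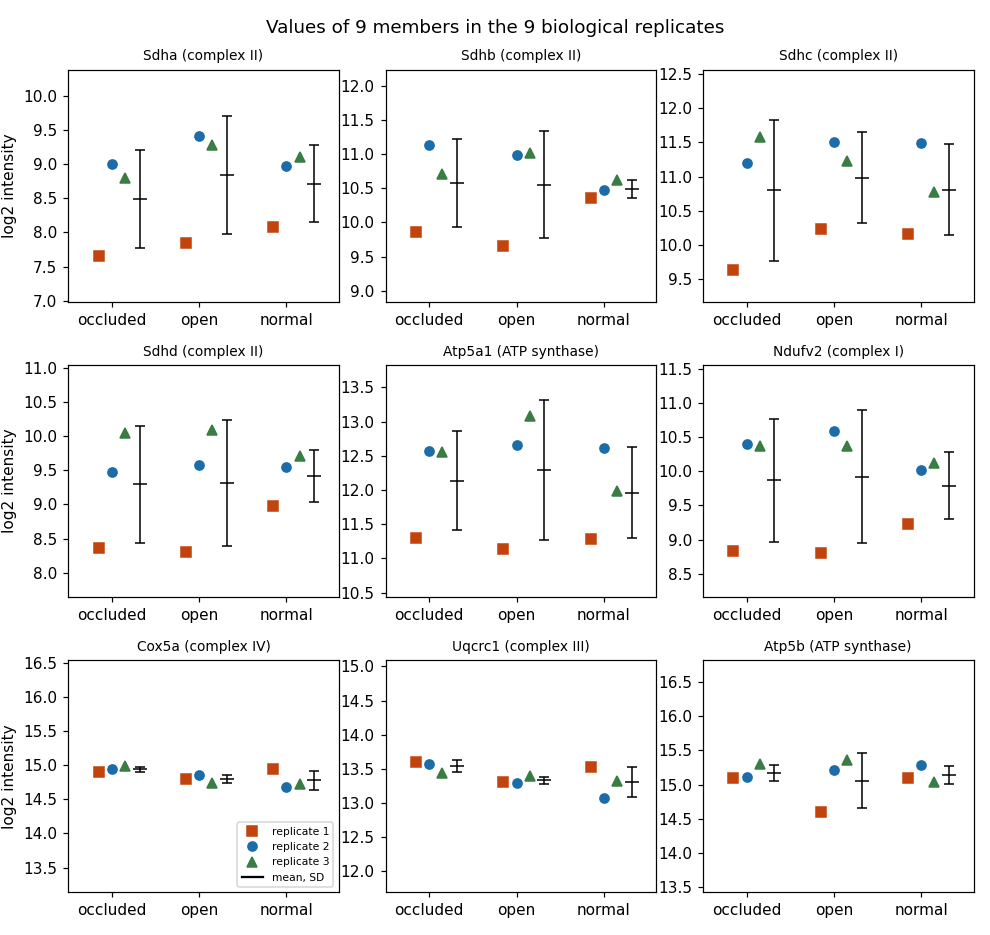
Log2 intensity of 9 members in the 3 occluded, 3 open and 3 normal biological replicates, with a symbol for each replicate number and the mean with its SD beside each group. Replicate 1 lies lowest in every group for Sdha, Sdhb, Sdhc, Sdhd, Atp5a1 and Ndufv2, while Cox5a stays between 14.67 and 14.98.

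The spread between replicates set what could be seen. Within groups the SD of a member had a median of 0.25 and a range of 0.03 to 1.02, and between the 3 repeat arrays of a replicate it had a median of 0.18 and a range of 0.05 to 1.60. Among the 65 readable members that were saturated on 0 arrays, Ndufa3 had the smallest spread between repeat arrays (0.07) and Ndufc2, a dim probe, the largest (0.48). Atp5c1 had 0.05, but was saturated on 7 of its 9 occluded arrays. Members with a mean log2 intensity of 8 to 10 had a median SD within groups of 0.52, against 0.29 for all named genes of that level. At 10 to 12 it was 0.44, against 0.24. At 12 to 14 it was 0.25, against 0.21. At 14 or more it was 0.18 over the 14 members saturated on 0 arrays, against 0.19 for all named genes of that level, saturated ones included. Below 8 it was 0.33 over 7 members, against 0.45. The members' median SD was thus the higher one from 8 to 14.

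Neighbouring pathways gave no calls either. Of the TCA cycle genes, 0 of 12 passed in occluded vs open, with a median of -0.03, and the values with the smallest p were 0.22 ± 0.13 for Suclg2 and -0.48 ± 0.42 for Mdh2. Of 16 glycolysis genes 0 passed, with a median of -0.10, 11 below 0, and -0.34 ± 0.17 for Gapdh (limma adjusted p = 0.873). Among 17 regulators of mitochondrial biogenesis, 0 passed and 1 had an unadjusted p under 0.05, the coactivator gene Ppargc1a (-0.52 ± 0.20, limma adjusted p = 0.721). For the large and the small mitochondrial ribosome 0 of 43 and 0 of 28 genes passed, with medians of 0.07 and 0.03. The 14 factors of cytochrome c oxidase assembly had a median of -0.02, the 9 genes of pyruvate dehydrogenase 0.06 and the 13 genes of fatty acid oxidation -0.01, with 0 passing in each. The medians were 0.06 for 13 genes of electron carriers and coenzyme Q, -0.04 for 11 genes of ADP/ATP carriers and porins, 0.06 for 16 genes of mitochondrial protein import, -0.03 for 9 genes of mitochondrial fusion and fission and 0.11 for 17 genes of the large cytosolic ribosome, again with 0 passing.

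Against normal mucosa, 0 genes of these lists passed in either comparison. In occluded vs normal the medians were -0.02 for the TCA cycle, -0.02 for glycolysis and 0.06 for the large mitochondrial ribosome. In open vs normal they were 0.02, 0.05 and -0.04. Mrpl45 of the large mitochondrial ribosome had the smallest p among these genes, with 1.18 ± 0.33 in occluded vs normal and 1.28 ± 0.33 in open vs normal (limma adjusted p = 0.98 and 1). Both differences rest on the same normal replicates.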

How the data were processed

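Total RNA was amplified with amino-allyl UTP and labelled with Cy5, per the labels' protocols. The deposited values are linear intensity values of 29922 probes on 27 arrays of 1 color. How the authors scanned, background-corrected and normalized them is not given in the sources. Between 1.45% and 3.93% of the values of an array were at or below 0. These were set to the lowest positive value (0.912) before log2. Since array medians spanned 1.15 log2 units, beyond a limit of 0.2, quantile normalization between arrays was applied before repeat arrays were averaged. The number of arrays and mice limits the precision.

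The fit was made with limma 3.58.1 and statmod 1.5.0 in R 4.3.3, with the package data.table (1.17.8). It covered all 29922 probes and 9 values, with mice as random blocks (correlation 0.389), two-sided, with Benjamini-Hochberg adjustment over all probes and a threshold of 0.05. Intervals are 95% intervals with 8.68 degrees of freedom. The members and lists were chosen with earlier results of these data known. The pattern of replicate 1 was found in the same data and is described without a test.

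The pairing follows the design text, in which both sides come from the same mice, and a reading of the title numbers. Deviations from the group means of equal-numbered occluded and open replicates correlated at 0.516, -0.0044 and 0.142 over all probes, so the values do not settle the pairing. Named members are the 10 with the smallest p in each comparison, core subunits, tissue isoforms and those with the smallest and largest spread of repeat arrays. Of each list, up to 2 genes with the smallest p are named. The members named for low or high values in replicate 1, for groups that do not overlap or for a sign shared by all pairs, and Slc17a6, were chosen after their values were seen. Symbols came from the array's annotation, which names 21020 probes and leaves 8902 unnamed here. Current names and promoters came from RefSeq tables of GRCm38.p6, and 12 members have no promoter here. The motif letters were chosen after longer forms had been tried on these windows. Alternatives changed the block, the scaling, the floor, the averaging, the filter on dim probes, the choice of probe, the prior or the samples fitted, with each replicate left out in turn.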

Additional observations from a re-analysis of the deposited data

How the results depend on the processing

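No member passed in any of 18 settings of occluded vs open, 20 of occluded vs normal and 20 of open vs normal, and the smallest adjusted p over these was 0.223, 0.901 and 0.913. At an unadjusted p under 0.05 there were at most 4, 1 and 2 members. The 4 were Cox6a2, Cox7a2l, Ndufa10 and Ndufa2, with a floor at an intensity of 16 before log2. Median differences lay between 0.02 and 0.10, between -0.02 and 0.13 and between -0.06 and 0.06. With median centring of the arrays the median of occluded vs open was 0.10, against 0.04 as reported, and the count of members low in replicate 1 was 9. With the number as a fixed replicate block over all 9 values, 0 members passed and the medians were 0.04, 0.04 and -0.0048. The same held with no replicate block, and for occluded vs open with each pair as a replicate block on 6 values (median 0.04). With a replicate left out, 0 members passed, and the medians ranged from 0.02 to 0.06, from -0.02 to 0.12 and from -0.06 to 0.06. Without the replicates numbered 1 of all groups (added after seeing the data) the medians were 0.03, 0.09 and 0.05. Up to 21, 25 and 20 of 71 members changed sign between settings, so the sign of a small difference is not firm. Of 3075 values under the alternatives, 3007 were counted as unchanged. For single members, the member medians and the list medians this was a move by less than the spread between replicates. Counts of members and medians by complex had fixed limits instead. The other 68 moved by more than these limits. Reversals of sign were not counted among these values. Saturation limits the reading of Cox8a, Cox6a1, Cox4i1 and Atp5c1, and low signal that of Cox4i2, Cox7b2 and Ndufc2.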
